A study of Mus musculus with 6 samples.

Results

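The 8 genes described here, Acot1, Acot2, Cpt1a, Pdk4, Angptl4, Ehhadh, Acadm and Ppara, belong to fatty acid oxidation and the fasting response and are linked to the peroxisome proliferator-activated receptor alpha (PPARα). They were selected by name from the 55414 genes of a count table, and they were chosen with their difference between TNF and PBS already known, so all their values in that contrast are a description. The data came from Paneth cells (PCs), the granular secretory cells of the small intestinal crypt base, purified on a cell sorter from C57BL/6J mice. Of these mice, 3 had received phosphate-buffered saline (PBS) and 3 had received tumour necrosis factor (TNF), and the small intestine was taken after 15 h. All mice of both groups were Ifnar1 knockouts (IFNAR1 KO), so they lacked a chain of the receptor for type I interferons, and no wild-type library was part of the comparison. Per the labels, each library held the PCs of a separate mouse. Age, sex, TNF dose and the allele of the knockout are not given in the labels.

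PPARα is a nuclear receptor that is activated by fatty acids, pairs with a retinoid X receptor (RXR) and binds DNA at repeats of a short hexamer. It is best known from the fasted liver, where it turns on genes for fatty acid uptake, for mitochondrial and peroxisomal β-oxidation and for ketone body synthesis. In the small intestine, dietary fat is a source of its ligands, and absorptive enterocytes are the cell type in which its targets are mostly studied.

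Total counts ranged from 12747484 to 17039511 per library, and levels are given as CPM, counts scaled to a common total with TMM (trimmed mean of M-values) factors. With 3 counts as the limit of what 0 counts can hide, the floor was 0.176 to 0.235 CPM, for counting error only. Lyz1, the lysozyme of PCs, was at 134153 to 226165 CPM in all libraries. Ifnar1 itself was counted at 5.18 to 12.7 CPM in all libraries, which checks nothing about the knockout, because counts of a whole gene include exons outside a disrupted part. TNF replicate 1 stood apart from its group. The first principal component (48.9% of the variance) placed it at -39.3, beside the PBS libraries at -35.8 to -28.7, with TNF replicates 2 and 3 at 63 and 73.1. Fold changes are therefore given with and without this library. It was picked out by its expression in these same data, so calls made without it are a description. PBS replicate 3 and TNF replicate 3 contained Y-linked Ddx3y at 12.6 and 12.1 CPM, against 0 to 0.085 CPM elsewhere, and TNF replicate 3 contained Xist as well, at 192 CPM (9.40 CPM in PBS replicate 3), which goes against its label of a single mouse.

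The first question was how the genes stood in each library. Of the 8 genes, 5 (Acot1, Acot2, Cpt1a, Pdk4 and Angptl4) were several times higher in TNF replicates 2 and 3 than in any PBS library, whereas Ehhadh, Acadm and Ppara were not. In TNF replicate 1, Acot1 was clearly above PBS, Cpt1a was slightly above, and the other 3 genes of that group of 5 lay within or near the PBS range.

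**Figure D1:**
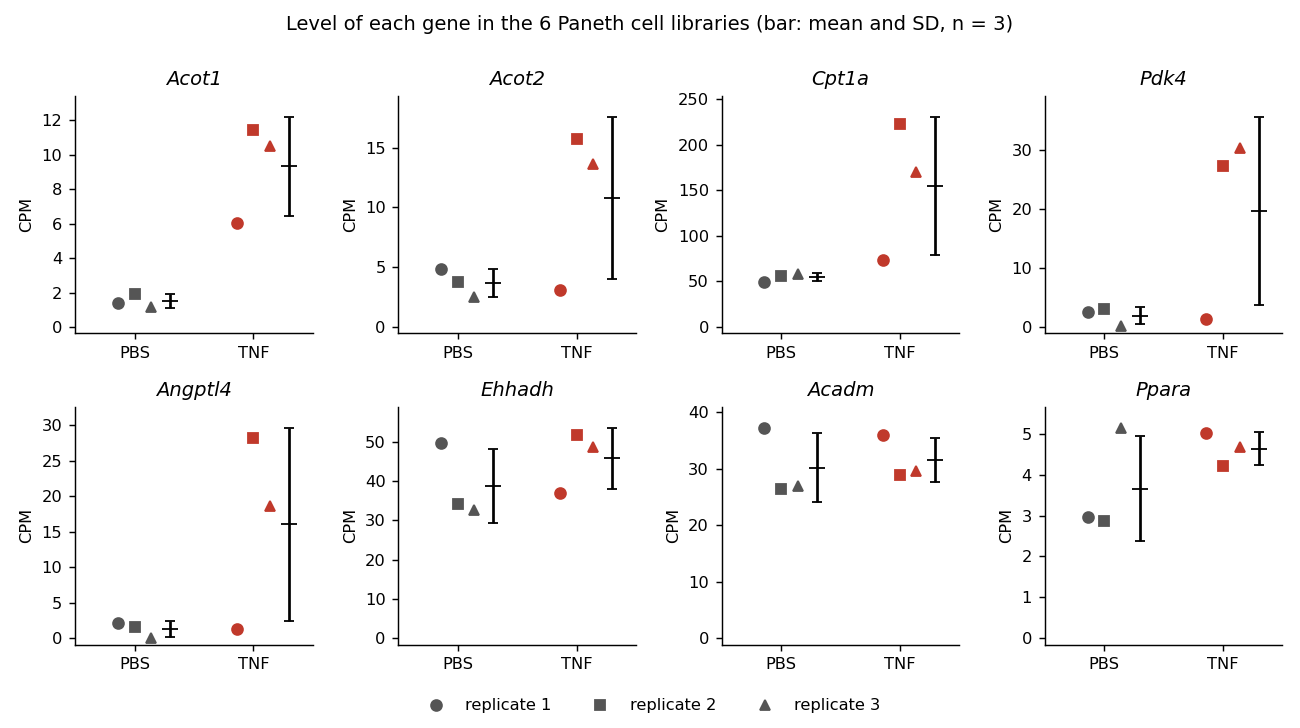
Level of each gene in CPM (vertical axis, linear) in the PBS libraries (grey) and the TNF libraries (red), with the mean and SD of each group as a bar (n = 3). Acot1 and Cpt1a do not overlap between groups, and TNF replicate 1 lies at the PBS level for Acot2, Pdk4 and Angptl4.

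Acot1 and Acot2 encode acyl-CoA thioesterases, which split acyl-CoA into free fatty acid and coenzyme A. The Acot1 enzyme works in the cytosol and the Acot2 enzyme in mitochondria. They are neighbours on chromosome 12 of mouse assembly GRCm39, both on the plus strand and with 3 exons each, Acot2 (ENSMUSG00000021226) at 84034428 to 84040647 and Acot1 (ENSMUSG00000072949) at 84056256 to 84065145. Because they are near-identical, the extent to which reads can separate them was examined first. Over 1236 aligned coding bases, 1181 were the same (95.6%). A stretch of 75 bases of the Acot1 transcript also occurred in another gene in 26.3% of all positions, in most cases in Acot2, and a stretch of 150 bases in 12.3%. For Acot2 these shares were 19.3% and 9.27%, and for the other 6 genes they were at most 0.57% and 0%. Ungapped coding stretches of 120 bases were compared in steps of 3 bases. The first with the most differences between Acot1 and Acot2 lies in exon 3 of both genes. It is shown because its left part is the same in both genes and its right part differs. The left part is shorter than 75 bases, so a read of that length cannot lie wholly within it. Capitals mark the 14 bases that differ, and the stretch is chr12:84063660-84063779 for Acot1 and chr12:84039382-84039501 for Acot2 (GENCODE annotation, plus strand).
Acot1: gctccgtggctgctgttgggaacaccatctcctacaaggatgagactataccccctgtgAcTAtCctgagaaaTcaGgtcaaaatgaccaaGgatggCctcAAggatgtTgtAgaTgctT
Acot2: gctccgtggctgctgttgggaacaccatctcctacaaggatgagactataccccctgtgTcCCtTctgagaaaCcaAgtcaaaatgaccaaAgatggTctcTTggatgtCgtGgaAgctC
How the authors' counting treated reads that fit both genes is not stated, so the split between Acot1 and Acot2 is uncertain.

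Acot1 was counted at 1.37, 1.94 and 1.18 CPM in PBS replicates 1 to 3, and at 6.03, 11.4 and 10.5 CPM in TNF replicates 1 to 3. The groups did not overlap, and Acot1 was the gene of this set in which TNF replicate 1 stood farthest above PBS, at a log2 ratio of 2.01 to the PBS mean. The means were 1.49 ± 0.395 CPM (SD, n = 3) in PBS and 9.32 ± 2.88 CPM (SD, n = 3) in TNF, which is 6.24-fold. The log2 fold change was 2.63 (SE 0.41, adjusted p 0.270 with edgeR), and without TNF replicate 1 it was 2.88 (adjusted p 5.73e-04, within a range of 1.73e-05 to 0.854 over all alternatives).

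Acot2 was counted at 4.83, 3.80 and 2.50 CPM in PBS, and at 3.06, 15.8 and 13.6 CPM in TNF. TNF replicate 1 lay inside the PBS range, so the groups overlapped, while TNF replicates 2 and 3 were both above all PBS libraries. Acot2 had a log2 fold change of 1.54 (SE 0.55, adjusted p 0.330 with edgeR), and without TNF replicate 1 it was 2.00 (adjusted p 0.00222, range over alternatives 0.00222 to 0.915). The counts of Acot1 and Acot2 were also summed into 1 feature, in which the split of counted reads between them does not matter. Shared reads that were counted for neither gene, if any, are missing from this sum. With all libraries its log2 fold change was 1.95 (SE 0.42, adjusted p 0.270 with edgeR). Without TNF replicate 1 it was 2.32 (adjusted p 2.93e-04 with edgeR). Summing Acot1 to Acot6, the whole local cluster of type I thioesterase genes, gave 1.76 (SE 0.42, adjusted p 0.271 with edgeR) and 2.11 (adjusted p 0.0011).

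Cpt1a encodes the carnitine palmitoyltransferase that commits long-chain acyl groups to entry into mitochondria, the rate-controlling step of their oxidation. The gene (ENSMUSG00000024900) lies on chromosome 19, 3371853 to 3437996, plus strand, and has 19 exons. Cpt1a was counted at 49.3, 56.2 and 58.1 CPM in PBS and at 73.1, 222 and 169 CPM in TNF. All TNF libraries were above all PBS libraries, but TNF replicate 1 only by a small step, at a log2 ratio of 0.42 to the PBS mean, compared with 2.03 and 1.64 in TNF replicates 2 and 3. PBS libraries differed little among themselves (54.6 ± 4.61 CPM, SD, n = 3), and the TNF libraries widely (155 ± 75.6 CPM, SD, n = 3). For Cpt1a the log2 fold change was 1.51 (SE 0.36, adjusted p 0.270 with edgeR), and 1.86 without TNF replicate 1 (adjusted p 2.53e-04, range over alternatives 2.47e-05 to 0.897). Its counts, 684 to 4543 per library, were the highest of the 5 genes that stood higher in TNF replicates 2 and 3.

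Pdk4 encodes a pyruvate dehydrogenase kinase, which inhibits the entry of glucose-derived pyruvate into the citric acid cycle when fatty acids are burned. The gene (ENSMUSG00000019577) lies on chromosome 6, 5483097 to 5496339, minus strand, and has 11 exons. Its levels were 2.60, 3.00 and 0.22 CPM in PBS and at 1.27, 27.3 and 30.4 CPM in TNF. TNF replicate 1 was inside the PBS range and the other TNF libraries were far above it, while PBS replicate 3 held only 3 counts of the gene. Pdk4 thus had a log2 fold change of 3.33 (SE 1.03, adjusted p 0.297 with edgeR), and 3.90 (SE 0.55) without TNF replicate 1 (adjusted p 9.41e-04, range over alternatives 2.96e-13 to 0.897).

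Angptl4 encodes a secreted inhibitor of lipoprotein lipase, the enzyme that frees fatty acids from circulating triglycerides. The gene (ENSMUSG00000002289) lies on chromosome 17, 33992724 to 34000804, minus strand, and has 7 exons. Angptl4 was counted at 2.16, 1.60 and 0.073 CPM in PBS and at 1.36, 28.2 and 18.6 CPM in TNF. As for Pdk4, TNF replicate 1 was inside the PBS range and PBS replicate 3 was the lowest library, with 1 count. For Angptl4 the log2 fold change was 3.64 (SE 1.05, adjusted p 0.278 with edgeR), and 4.20 (SE 0.60) without TNF replicate 1 (adjusted p 0.00107, range over alternatives 3.05e-13 to 0.897). PBS replicate 3 is the PBS library with Ddx3y transcripts, and the part of this difference in the low Pdk4 and Angptl4 values was not tested. TNF replicate 3, which also contained Ddx3y, was high in both genes.

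Ehhadh encodes the bifunctional enzyme of the peroxisomal β-oxidation spiral and is a classical PPARα target in liver. The gene (ENSMUSG00000022853) lies on chromosome 16, 21580036 to 21606563, minus strand, and has 7 exons. Ehhadh was counted at 49.6, 34.1 and 32.5 CPM in PBS and at 36.9, 51.7 and 48.6 CPM in TNF. PBS replicate 1 was as high as TNF replicates 2 and 3, and the groups overlapped. The log2 fold change of 0.24 (SE 0.24, adjusted p 0.721 with edgeR) was about as large as its error, and without TNF replicate 1 it was 0.39 (SE 0.22, adjusted p 0.280, range over alternatives 0.129 to 0.968).

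Acadm encodes the medium-chain acyl-CoA dehydrogenase of the mitochondrial matrix. The gene (ENSMUSG00000062908) lies on chromosome 3, 153627989 to 153650317, minus strand, and has 12 exons. It was counted at 37.2, 26.4 and 26.9 CPM in PBS and at 35.9, 29.0 and 29.6 CPM in TNF. The highest library of each group was its replicate 1, and all other libraries lay close together below them. The log2 fold change was 0.06 (SE 0.22, adjusted p 0.931 with edgeR) and turned to -0.02 (SE 0.22, adjusted p 0.959) without TNF replicate 1 and to -0.05 with scaling by library size alone, so no direction can be given.

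Ppara encodes the receptor itself. The gene (ENSMUSG00000022383) lies on chromosome 15, 85618656 to 85687067, plus strand, and has 8 exons. It was counted at 2.96, 2.87 and 5.14 CPM in PBS and at 5.01, 4.21 and 4.67 CPM in TNF, which is 41 to 86 counts per library. PBS replicate 3 was the highest of all libraries, so the groups overlapped. The log2 fold change was 0.34 (SE 0.40, adjusted p 0.763 with edgeR), and 0.30 (SE 0.43, adjusted p 0.709) without TNF replicate 1. Ppara overlaps Cdpf1 on the opposite strand, and since the use of strand in counting is not given, reads of the shared part cannot be assigned with certainty.

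With all 6 libraries, 0 of the 8 genes passed 5% (a Benjamini-Hochberg adjusted p under 0.05 over all genes tested by edgeR), as did 0 of 13026 tested genes (0%). At an unadjusted p under 0.05, 5 of 8 were higher and 0 lower, against 8.25% of all tested genes higher and 4% lower. All TNF libraries were above all PBS libraries for 2 of 8 (Acot1 and Cpt1a), which holds for 9.07% of all tested genes. Without TNF replicate 1, the genes past 5% were Acot1, Acot2, Cpt1a, Pdk4 and Angptl4, all higher, beside 9.1% of all tested genes that passed as higher. Without TNF replicate 3, the library with both Xist and Ddx3y, these 5 genes had log2 fold changes of 2.55, 1.36, 1.44, 2.89 and 3.53 in the same order, and none passed (adjusted p 0.854 to 0.915 with edgeR). DESeq2 on all 6 libraries passed Acot1 (adjusted p 1.73e-05) and Cpt1a (adjusted p 0.00679). The median log2 fold change of the 8 genes was 1.53, against -0.000587 over all tested genes. Since the genes were chosen with this contrast known, these counts are given beside the background and nothing is read from them.

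**Figure D2:**
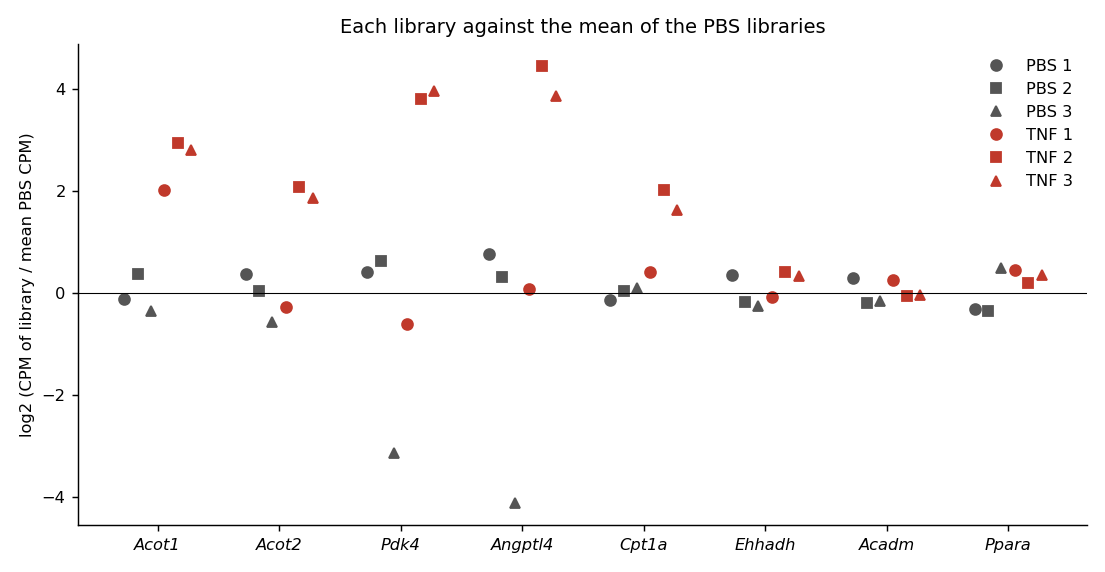
Log2 ratio of the CPM of each library to the mean CPM of the PBS libraries (vertical axis) for each gene, PBS in grey and TNF in red. TNF replicate 1 (red circles) is at 2.01 for Acot1 and between -0.61 and 0.46 for the other genes, and the low PBS triangles are the 3 counts of Pdk4 and the 1 count of Angptl4 in PBS replicate 3.

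The genes also differed in how much RNA they contributed. To compare genes with each other, CPM was divided by the length of the canonical transcript in kilobases (CPM per kb). In PBS the order of these levels was Acadm at 14.7 ± 2.97 CPM per kb (SD, n = 3), Ehhadh at 13.0 ± 3.16, Cpt1a at 8.27 ± 0.70, Acot2 at 1.54 ± 0.487, Ppara at 1.03 ± 0.363, Acot1 at 0.655 ± 0.173, Pdk4 at 0.516 ± 0.40 and Angptl4 at 0.387 ± 0.327. The PBS ranges of neighbours in this order overlapped except between Ehhadh and Cpt1a and between Cpt1a and Acot2. Besides Cpt1a, the genes that stood higher in TNF replicates 2 and 3 were all among the 5 with the lowest levels in PBS. In TNF, Cpt1a was highest at 23.5 ± 11.5 CPM per kb (SD, n = 3), above Acadm at 15.3 ± 1.88 and Ehhadh at 15.3 ± 2.61, but in TNF replicate 1 it was the lowest of these 3, at 11.1 CPM per kb.

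PPARα with RXR binds direct repeats of the hexamer AGGTCA with 1 base between them (DR1, searched as AGGTCANAGGTCA), so the promoters of the genes were searched for these letters on both strands. RefSeq promoter sequences were at hand for 7 of the 8 genes, all but Angptl4, made on GRCm38.p6 and placed on GRCm39 by an exact and unique match. In the 250 bases before the RefSeq start, none of the 7 had a DR1 with 2 or fewer mismatches, which 3.25% of 32544 promoters have. The closest match had 3 mismatches in Acadm and Acot2, as in 21.3% of all promoters at this limit, and 4 in Acot1, Cpt1a, Pdk4, Ehhadh and Ppara, as in 74.4%. The bare hexamer, which is part of DR1, was present in Cpt1a and Acadm, and in 14% of all promoters. Shown are the non-exonic parts of the promoters of Acot1, Cpt1a and Pdk4, which stood higher in TNF replicates 2 and 3 and represent the thioesterase, carnitine and pyruvate steps, and of Acadm, which did not. Each reads 5′ to 3′ on the strand of its gene, with a closest DR1 match in capitals. Among equally close matches only the first found was kept, and the strand of the gene was searched first. In Cpt1a an unmarked match on the other strand, which includes the bare hexamer, also has 4 mismatches. The stretches are chr12:84056026-84056255 (plus), chr19:3373051-3373270 (plus), chr6:5496340-5496528 (minus) and chr3:153650318-153650530 (minus), all in GRCm39.
Acot1: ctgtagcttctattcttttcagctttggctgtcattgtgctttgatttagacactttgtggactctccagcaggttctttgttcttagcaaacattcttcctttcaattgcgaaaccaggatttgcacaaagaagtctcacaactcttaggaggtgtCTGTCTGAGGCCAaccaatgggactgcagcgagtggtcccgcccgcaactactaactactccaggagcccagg
Cpt1a: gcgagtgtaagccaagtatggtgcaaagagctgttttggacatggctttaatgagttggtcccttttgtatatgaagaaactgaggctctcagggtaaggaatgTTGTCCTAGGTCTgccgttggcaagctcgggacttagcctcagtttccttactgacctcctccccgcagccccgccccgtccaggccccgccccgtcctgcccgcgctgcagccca
Pdk4: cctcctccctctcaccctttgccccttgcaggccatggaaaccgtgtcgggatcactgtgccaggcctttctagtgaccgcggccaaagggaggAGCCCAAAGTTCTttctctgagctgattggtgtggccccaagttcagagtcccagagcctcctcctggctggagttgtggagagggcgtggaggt
Acadm: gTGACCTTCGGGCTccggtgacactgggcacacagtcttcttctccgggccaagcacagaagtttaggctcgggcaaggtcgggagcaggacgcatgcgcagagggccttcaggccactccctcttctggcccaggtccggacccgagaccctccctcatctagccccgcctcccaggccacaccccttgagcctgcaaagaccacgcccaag
The Cpt1a stretch lies within the annotated gene, because GENCODE places the gene start farther upstream than RefSeq does. In Ppara all 250 searched bases are exonic in GENCODE. In Acot2 the last 207 of them, with the DR1 match kept for it, lie within the annotated gene. These matches are descriptions of letters, and binding sites of PPARα farther away were not searched.

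It was then asked which other genes had the most similar profile over the 6 libraries. As a measure of likeness, log2 CPM was centred on each gene's own mean and the root mean square (RMS) difference was taken over the 6 libraries, for 9759 genes whose average log2 CPM was 2 or more. Nearest to Cpt1a was Plin2, the coat protein of lipid droplets, at an RMS difference of 0.0495 log2 units. Plin2 was counted at 11.7, 12.8 and 14.5 CPM in PBS and at 17.8, 50.7 and 40.7 CPM in TNF, so it had the same small step in TNF replicate 1. F11r, a tight junction protein (0.0789), and Elovl7, a fatty acid elongase (0.115), followed. For Acot1 the nearest were Rab32 (0.439), 4833438C02Rik (0.462) and Rbm3 (0.513), a cold-inducible RNA-binding protein, and in all 3 of them TNF replicate 1 was also above the PBS libraries.

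Pdk4 and Angptl4 were more like each other (RMS difference 0.383) than either was like any other of the 8 genes. Outside the set, Nos2, the inducible nitric oxide synthase, was nearest to both, at 0.678 for Pdk4 and 0.853 for Angptl4. It was counted at 6.42, 3.80 and 1.76 CPM in PBS and at 3.23, 38.2 and 76.1 CPM in TNF. Fam3b (0.935) and S100a11 (0.952) followed for Pdk4, and S100a11 was also among the 3 nearest to Angptl4 (1.04). Ehhadh and Acadm were at 0.266 from each other, and Acadm and Ppara at 0.396. The measure is not scaled by spread, so genes that vary little over the libraries lie near each other whatever their pattern.

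The other genes of fatty acid metabolism were taken from 9 lists with 154 genes, of which 123 were tested. With all 6 libraries 0 of these 123 passed 5%. At an unadjusted p under 0.05, 24 of the 123 were higher and 6 lower, against 8.25% and 4% of all tested genes. For 25 of them all TNF libraries were above all PBS libraries, and for 7 all were below, against 9.07% and 7.82% of all tested genes. Without TNF replicate 1, 33 of 125 tested genes passed as higher and 7 as lower, against 9.1% and 5.4% of all tested genes. These shares are also the background for the calls of each list below. Calls named in the following paragraphs are those without TNF replicate 1, and the log2 fold changes are given with all 6 libraries first. Because TNF replicate 1 was picked out by its expression in these same data, leaving it out favours calls. They are given as a description.

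**Figure D3:**
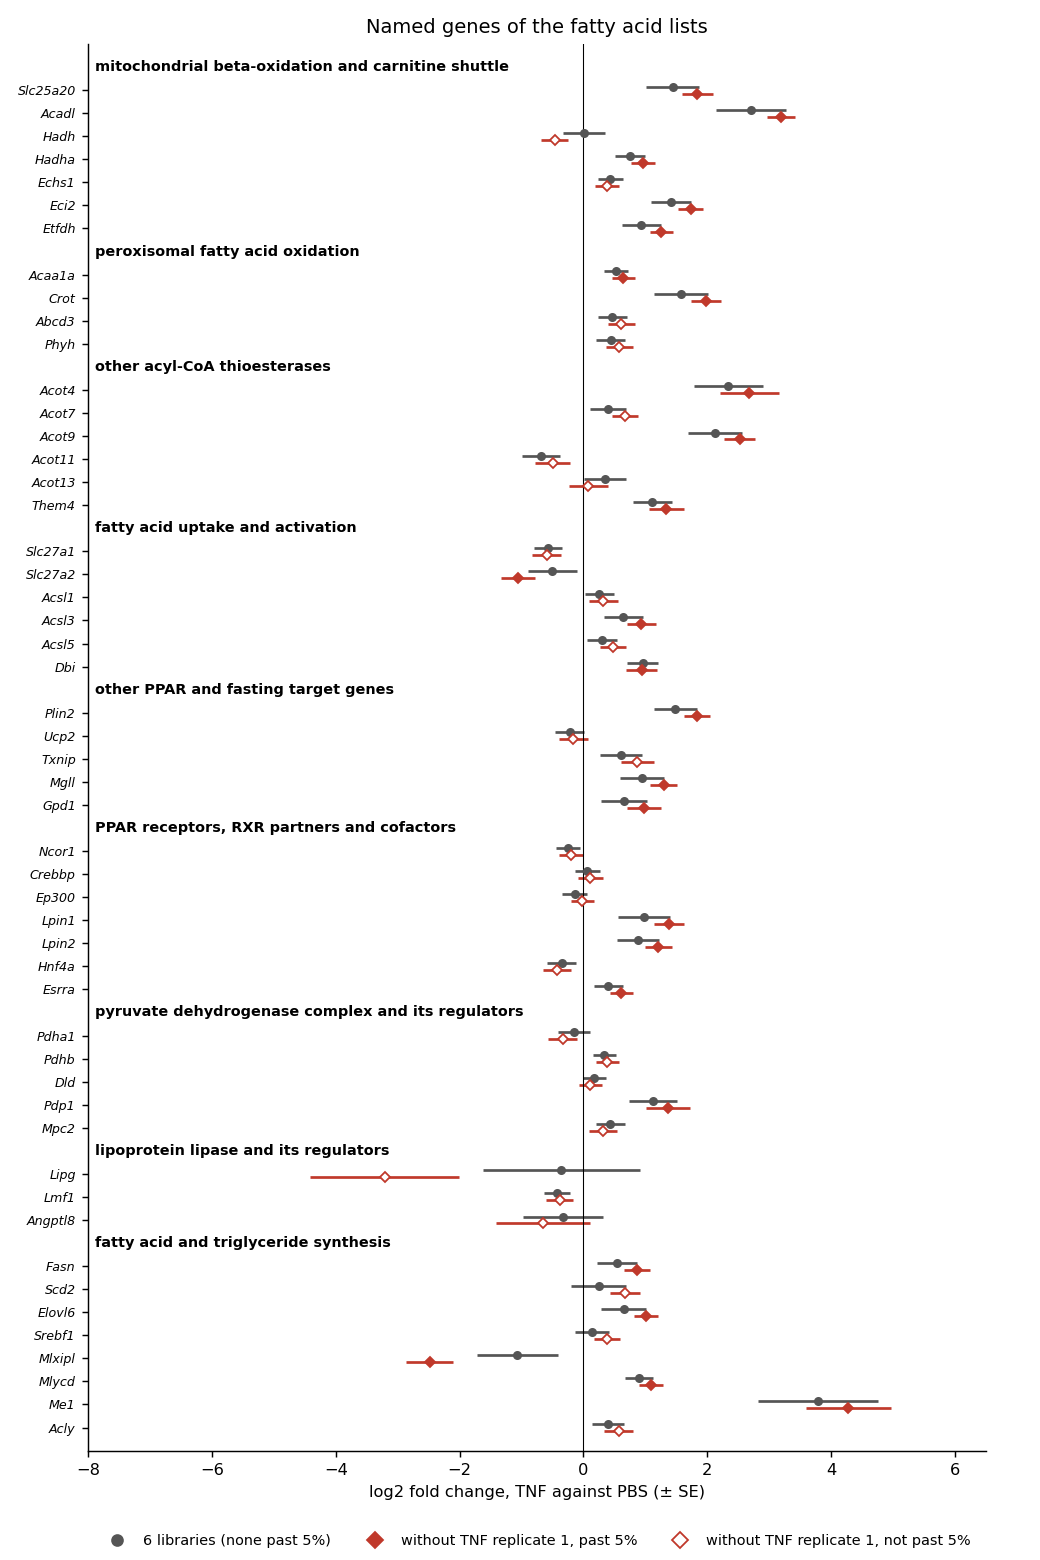
Log2 fold change of TNF against PBS (horizontal axis, with SE) for named genes of the 9 lists, with all 6 libraries (grey circles) and without TNF replicate 1 (red diamonds, filled where the adjusted p was under 0.05). Me1 and Acadl lie farthest to the right of the genes drawn, and the genes of the receptor and pyruvate dehydrogenase lists lie mostly near 0.

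In the list of mitochondrial β-oxidation and the carnitine shuttle, which holds the enzymes next to Cpt1a and Acadm, 16 of 23 tested genes had a positive and 7 a negative log2 fold change (median 0.43), and 9 passed as higher and 3 as lower without TNF replicate 1. Acadl, the long-chain acyl-CoA dehydrogenase, was counted at 41.0, 49.1 and 55.7 CPM in PBS and at 75, 414 and 463 CPM in TNF. Its groups did not overlap, and its log2 fold change was 2.71 and 3.20 without TNF replicate 1, in contrast to 0.06 and -0.02 for Acadm, the medium-chain enzyme. Slc25a20, the carnitine-acylcarnitine carrier of the inner membrane (1.44 and 1.84), Eci2, an enoyl-CoA isomerase (1.42 and 1.74), Etfdh, which passes electrons from acyl-CoA dehydrogenases to ubiquinone (0.94 and 1.26), and Hadha, the α-subunit of the trifunctional protein (0.76 and 0.96), also passed as higher. The 3 that passed as lower were Acadsb, Acad11 and Eci1, outside the naming rule and picked out because they went the other way. Hadh and Echs1, which are among the most highly counted of the list, did not pass, and Hadh changed sign (0.01 and -0.47).

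In the peroxisomal list, which holds the partners of Ehhadh, 10 of 16 tested genes had a positive log2 fold change and 6 a negative (median 0.27). Of 17 tested without TNF replicate 1, 3 passed as higher and 0 as lower. Crot, which transfers medium-chain acyl groups to carnitine for export from peroxisomes, was counted at 38.5, 57.4 and 63.0 CPM in PBS and at 60.4, 204 and 209 CPM in TNF (log2 fold change 1.57 and 1.98). TNF replicate 1 was again within PBS. Acaa1a, the thiolase of the spiral, had a smaller change (0.53 and 0.64), and Abcd3 and Phyh did not pass.

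Among the other acyl-CoA thioesterases, 7 of 8 tested genes had a positive log2 fold change and 1 a negative (median 0.61), and 3 passed as higher and 0 as lower. Acot9, a mitochondrial enzyme of another family than Acot1, was counted at 3.90, 3.80 and 5.07 CPM in PBS and at 7.39, 23.4 and 25.0 CPM in TNF (log2 fold change 2.13 and 2.52). Acot4, a peroxisomal neighbour of Acot1, was at 2.16, 0.80 and 1.10 CPM in PBS and at 3.40, 9.93 and 7.25 CPM in TNF (2.34 and 2.68), and Them4 had 1.11 and 1.34. In these 3 genes, as in Acot1, TNF replicate 1 was above all PBS libraries. Acot7, Acot11 and Acot13 did not pass, and Acot5, also in the cluster, had no counts in any library.

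Of 9 tested genes of fatty acid uptake and activation, 6 had a positive log2 fold change (median 0.30), 2 passed as higher and 1 as lower. Dbi, the acyl-CoA binding protein, was counted at 59.7, 73.5 and 71.6 CPM in PBS and at 139, 95.4 and 163 CPM in TNF, with no overlap (0.96 and 0.94). Here TNF replicate 1 was higher than TNF replicate 2. Acsl3, an acyl-CoA synthetase, passed as higher (0.65 and 0.94) and Slc27a2, a very-long-chain acyl-CoA synthetase, as lower (-0.51 and -1.06). Slc27a1, Acsl1 and Acsl5 did not pass.

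Among other PPAR and fasting target genes, 13 of 18 tested had a positive log2 fold change (median 0.60), and of 19 tested without TNF replicate 1, 8 passed as higher and 2 as lower. Plin2, whose groups did not overlap (1.49 and 1.83), Mgll, the monoglyceride lipase (0.95 and 1.30), and Gpd1, the cytosolic glycerol-3-phosphate dehydrogenase (0.65 and 0.98), passed as higher. Mgll was counted at 25.1, 18.8 and 16.7 CPM in PBS and at 19.2, 50.3 and 47.4 CPM in TNF, with TNF replicate 1 inside the PBS range. Ucp2 and Txnip, both among the most highly counted of the list, did not pass. Cyp4a10, a liver target of PPARα, had no counts in any library.

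Of the receptors, RXR partners and cofactors, 8 of 19 tested had a positive log2 fold change and 11 a negative (median -0.036), and 3 passed as higher and 0 as lower. These were Lpin1 (0.98 and 1.38) and Lpin2 (0.89 and 1.21), phosphatidate phosphatases that also serve as coactivators, and Esrra (0.40 and 0.61), a nuclear receptor of mitochondrial genes. Ncor1, Crebbp, Ep300 and Hnf4a did not pass, and Hnf4a was at 134 to 241 CPM.

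In the list of the pyruvate dehydrogenase complex and its regulators, around Pdk4, 8 of 12 tested genes had a positive log2 fold change (median 0.26). Only 1 of 12 passed as higher, against 9.1% of all tested genes. It was Pdp1, a phosphatase that opposes the kinases (1.13 and 1.36). Pdha1, the catalytic subunit, had values of -0.16 and -0.33, and Pdhb, Dld and Mpc2 did not pass. For the other kinases, which the naming rule does not cover but which bear on Pdk4, log2 fold changes were -0.01 and -0.13 for Pdk1, -0.70 and -0.72 for Pdk2 and 0.08 and 0.06 for Pdk3, and none passed.

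In the list around Angptl4, of lipoprotein lipase and its regulators, only 3 of 7 genes had enough counts for a test and none of them passed. Log2 fold changes were -0.36 and -3.21 for Lipg, which had 0 to 5.18 CPM, -0.42 and -0.39 for Lmf1, and -0.33 and -0.65 for Angptl8. Gpihbp1, which holds the lipase in capillaries, had no counts, and Lpl itself was at 0 to 0.661 CPM. Of the list of fatty acid and triglyceride synthesis, 11 of 15 tested genes had a positive log2 fold change (median 0.40), 4 passed as higher and 1 as lower. Me1, the malic enzyme, was counted at 1.37, 0 and 1.40 CPM in PBS and at 2.89, 18.9 and 16.3 CPM in TNF (3.79 and 4.28). Mlycd, which degrades malonyl-CoA, the inhibitor of Cpt1a, was also higher (0.90 and 1.09), as were the synthetic enzymes Fasn (0.54 and 0.87) and Elovl6 (0.65 and 1.01). Mlxipl, a glucose-sensing transcription factor, was lower (-1.07 and -2.48), with 1.42 and 1.77 CPM in TNF replicates 2 and 3 against 7.93 to 10.7 CPM in the other libraries. Scd2, Srebf1 and Acly did not pass.

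Since many of these genes are known from enterocytes and other cells, markers of the cell types a PC sort could hold were examined beside them. In bulk samples fewer cells of a type and less RNA per cell cannot be told apart. The 16 enterocyte markers summed to 418 to 492 CPM in PBS, 446 CPM in TNF replicate 1, and only 162 and 117 CPM in TNF replicates 2 and 3. TNF replicates 2 and 3 were also the libraries with the highest Cpt1a, Pdk4, Angptl4, Acot1 and Acot2, and a link between these values was not tested. Anpep, the highest of the enterocyte markers, was at 79.0 to 195 CPM in PBS, 93.1 CPM in TNF replicate 1, and 56.0 and 36.7 CPM in TNF replicates 2 and 3. None of the 16 was at 0 in all libraries.

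The sum of the 8 stem cell markers was lowest in the same libraries. It was 2730 to 3338 CPM in PBS, 4886 CPM in TNF replicate 1, and 1019 and 887 CPM in TNF replicates 2 and 3. Most of this sum in PBS and in TNF replicate 1 came from Olfm4, so it describes that gene more than the list. Olfm4, the highest of them, was at 1925 to 2374 CPM in PBS, 3887 CPM in TNF replicate 1, and 233 and 272 CPM in TNF replicates 2 and 3. The 8 goblet cell markers were also lowest in these libraries, though in TNF replicate 3 only by a small step. Their sums were 12406 to 13665 CPM in PBS, 15822 CPM in TNF replicate 1, and 7917 and 12066 CPM in TNF replicates 2 and 3. Spink4, the highest of them, was at 3934 to 10921 CPM over all libraries. The 10 PC markers summed to 227071 to 277206 CPM in PBS and 205243 to 344538 CPM in TNF. Without TNF replicate 1, the markers that passed as lower were 8 of 13 tested for enterocytes, 4 of 8 for stem cells and 5 of 8 for goblet cells. None of these lists had a marker that passed as higher. Of the 10 PC markers, 3 passed as higher and 2 as lower. Among all tested genes 9.1% passed as higher and 5.4% as lower.

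The remaining lists did not separate TNF replicates 2 and 3 from the other libraries. The 8 tuft cell markers summed to 473 to 1682 CPM in PBS and 565 to 1127 CPM in TNF, led by Trpm5 at 139 to 480 CPM. The 8 enteroendocrine markers summed to 51.0 to 171 CPM and 47.0 to 128 CPM, led by Chgb at 12.2 to 38.2 CPM. The 8 immune markers summed to 22.1 to 54.4 CPM and 35.6 to 45.2 CPM, led by Lyz2 at 13.1 to 27.6 CPM, with Nkg7 at 0 in all libraries. The 8 stromal, endothelial and adipose markers summed to at most 0.667 CPM, led by Col3a1 at 0 to 0.40 CPM, with Cdh5, Adipoq and Plin1 at 0 in all libraries. The part of the changes in enterocyte, stem cell and goblet cell markers in the levels of the 8 genes was not tested.

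**Figure D4:**
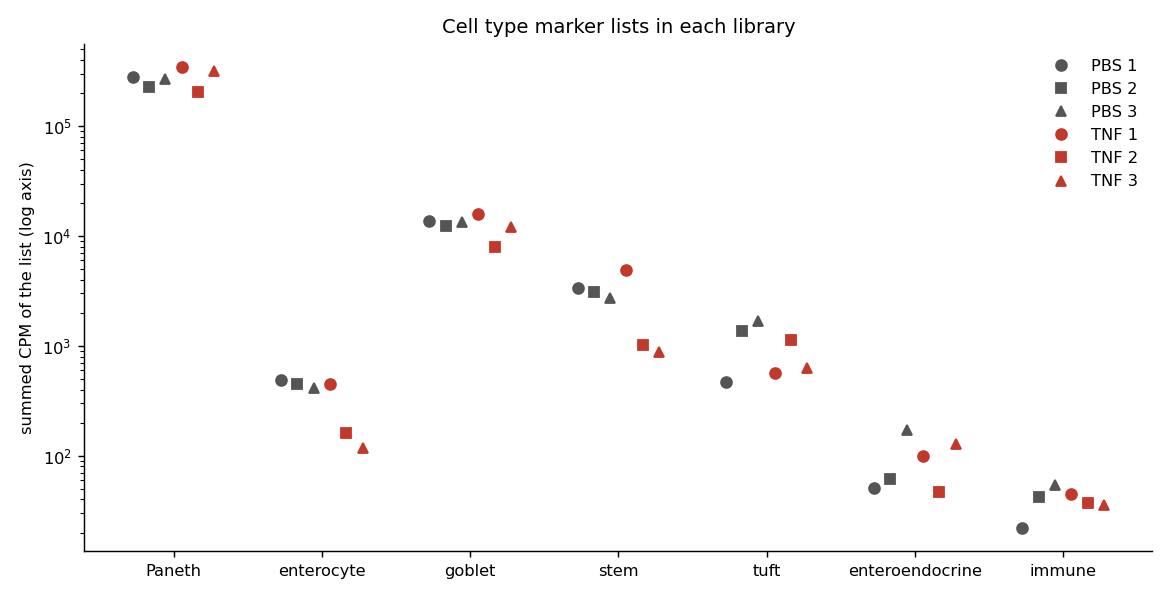
Summed CPM of each marker list (vertical axis, log scale) in each library, PBS in grey and TNF in red. TNF replicates 2 and 3 (red square and triangle) are below all other libraries for the enterocyte, stem cell and goblet cell lists, and PC markers are at 205243 to 344538 CPM throughout.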

How the data were processed

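RNA of sorted PCs from 3 PBS and 3 TNF mice was sequenced with single-end reads, 1 library per mouse per the labels. The authors deposited 1 table of raw counts per Ensembl gene, and 0 columns of sample values were left unused. The submitters' processing notes name FastQC, Trimmomatic 0.39, STAR 2.7.10a, DESeq2 and build mm39, without giving the role of each, and the counting tool, the use of strand and the handling of shared reads were not stated in the material at hand. Of 55414 identifiers, 54749 matched GENCODE vM39 (GRCm39), and the others held 0.0193% of the counts.

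Counts were analysed in R 4.3.3 with edgeR 4.0.16 (filterByExpr with a minimum count of 10 and a minimum total of 15, TMM factors, two-sided quasi-likelihood test, 5% by Benjamini-Hochberg over 13026 genes), after a test on simulated data. The filter asks for counts in 3 libraries. CPM uses TMM-scaled library sizes, and log2 CPM a prior count of 2. The SE was obtained as log2 fold change over the root of F. Alternatives were RLE and upper-quartile factors, library size alone, testing all genes with counts, a floor of 5 on the mean CPM, DESeq2 1.42.0, limma-voom (limma 3.58.1) with and without sample weights, the replicate number as a block, each library left out, a minimum log2 change of 1, and summed Acot genes.

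The members, lists and alternatives were chosen with earlier results of these data known. Named are the 8 genes, the 4 most highly counted tested genes of each list, up to 4 of each list with the smallest p past 5% without TNF replicate 1, the 3 genes nearest in profile to Acot1, Pdk4, Angptl4 and Cpt1a, the highest marker of each list, and Lyz1, Xist and Ddx3y. Ifnar1, Acadsb, Acad11, Eci1, Acot5, Cyp4a10, Lpl, Gpihbp1, Pdk1, Pdk2 and Pdk3 are named in addition, after their values were seen. P-values set the difference of the groups against the spread between the libraries, which are separate mice per the labels only. Some single genes of the lists are not reported here.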

Additional observations from a re-analysis of the deposited data

How the results depend on the processing

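Without a library in turn, the number of genes past 5% ranged from 0 to 1980, of the 8 genes from 0 to 5, and of the pathway genes from 0 to 40, and all values above 0 came from the fit without TNF replicate 1 (1243 of the 1980 higher). With all 6 libraries edgeR passed 0 of 13026 genes, with 1596 at an unadjusted p under 0.05. Without the low-count filter 690 genes passed (5 of the 8 genes, 14 pathway genes), with DESeq2 242 (2 and 9), and with sample weights in limma-voom 1501 (3 and 34), against 0 by limma-voom without weights (1670 at an unadjusted p under 0.05). RLE or upper-quartile factors, library size alone and a mean CPM of at least 5 (which dropped Ppara) gave 0 genes. A minimum log2 change of 1 was applied to the 0 calls of the main fit, so it could only give 0 genes. With the replicate number as a block 0 genes, 0 of the 8 genes and 0 pathway genes passed. In their deviations from the group means, same-numbered libraries correlated at -0.0128, -0.0748 and 0.0311, and differently numbered ones at -0.0582 to 0.0699. With 3 libraries per group, these values cannot decide whether the numbers pair the mice.

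Of the 8 genes, only Acadm changed sign (0.06), to -0.05 with library size alone, and with libraries left out it ranged from -0.06 to 0.24. Hadh (0.01) turned to -0.0012 (RLE), -0.15 (library size), -0.01 (upper quartile), -0.02 (no filter), -0.001 (DESeq2), -0.07 and -0.24 (limma-voom without and with weights) and -0.08 (block), and ranged from -0.47 to 0.23 with libraries left out. Crebbp turned to -0.04 (library size) and -0.001 (upper quartile) and Scd2 to -0.02 (limma-voom) and -0.0033 (block). With single libraries left out, the values of genes that changed sign ranged from -0.38 to 0.00026 for Ucp2, -0.05 to 0.18 for Crebbp, -0.33 to 0.01 for Pdha1, -3.21 to 0.23 for Lipg, -0.65 to 0.05 for Angptl8, -0.39 to 0.67 for Scd2 and -0.10 to 0.38 for Srebf1. The causes were not tested. The depth limits the values of Pdk4 and Angptl4, with 3 counts and 1 count in PBS replicate 3, and of Me1, with 0 CPM in PBS replicate 2.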
